A study of Mus musculus with 30 samples.

Results

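The 34 genes described here are interferon-stimulated genes, chosen by name from what is known of their induction by interferons, out of 21902 genes in the gene table. They comprise 4 genes of the Ifit family (Ifit1, Ifit2, Ifit3, Ifit3b), 4 of the OAS family (Oasl2, Oas1a, Oas2, Oas3), the antiviral proteins Mx1, Mx2 and Rsad2, the ubiquitin-like Isg15 and its protease Usp18, the guanylate-binding proteins Gbp2 and Gbp3, the membrane proteins Bst2, Ifitm1, Ifitm2 and Ifitm3, the RNA sensors Ddx58, Ifih1 and Dhx58 with the partner Trim25 and the nucleic acid sensor Zbp1, the transcription factors Stat2, Irf9 and Irf7, and 7 further induced genes (Ifi44, Ifi35, Xaf1, Rtp4, Parp14, Lgals3bp, Ifi27). The study asked how brain endothelial cells (ECs) change when they are taken into culture, and whether active beta-catenin signalling alters the cultured state. RNA-seq was measured in 14 libraries and chromatin accessibility (ATAC-seq) in 10. All mice were adult males.

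Acutely isolated ECs (n = 2) were the GFP-positive cells sorted from brains of mice with the Tie2-GFP transgene, which labels ECs, and the GFP-negative cells of those brains (n = 2) made up the comparison group. Their RNA was amplified, and cerebrum and cerebellum data were combined. The WT cultures (n = 6) were brain ECs grown for 8 days and purified with puromycin, which spares cells that pump it out, as brain ECs do. They came from 3 experiments of 2 wells each: WT1 (replicates 1 and 2) used C57BL/6J mice and method A (papain digestion), WT2 (replicates 3 and 4) and WT3 (replicates 5 and 6) used Ctnnb1flex3/+;Tie2-GFP mice without Cre and method B (Dounce homogenization with collagenase and dispase). WT2 was sequenced at another facility with 150 cycles, and the other cultures with 36 cycles. For the isolation method, the paper's methods section was followed. A figure legend of the paper differs: it gives method B only to the 2 RNA-seq samples from the other facility and method A to the other 4. By that legend WT3 would be method A. Stabilized cultures (n = 4) came from Ctnnb1flex3/+;Pdgfb-CreER;Tie2-GFP mice. In these mice an EC-driven Cre removes the exon of beta-catenin needed for its breakdown. For RNA-seq, 2 wells were from method A (experiment ST1) and 2 from method B (ST2). The mice with the Ctnnb1flex3 allele, with or without Cre, had received 4-hydroxytamoxifen as pups. The paper's results describe both kinds of WT control as injected, while its methods can be read either way for C57BL/6J. Brains were pooled in each culture experiment and its replicates are wells, so that p-values among wells measure the spread between wells only. Gene sums do not show the loss of an exon, so the genotype was not checked from them.

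Type I interferons (alpha and beta) bind the receptor pair Ifnar1 and Ifnar2, and the kinases Jak1 and Tyk2 then act on Stat2, which joins Irf9 in the complex ISGF3. ISGF3 binds the interferon-stimulated response element (ISRE) near the starts of target genes, while the response to interferon gamma acts through the gamma-activated sequence (GAS). Many cells hold a low level of these genes without infection, and several members (Stat2, Irf9, Irf7, Ddx58, Ifih1) are themselves parts of the pathway.

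Promoter sequences for 25 of the 34 members were found in RefSeq (GRCm38.p6), as windows from 250 bases before to 50 bases after each transcript start. The ISRE core (GAAA, any 2 bases, GAAA), searched on both strands, lay in the promoter of 15 members: Isg15, Ifit1, Ifit3, Ifit3b, Oas1a, Oas3, Rsad2, Stat2, Gbp2, Gbp3, Bst2, Ifitm2, Ifitm3, Ddx58 and Ifih1. It lay in 3.44% of all 32851 promoters. The GAS core (TTC, any 3 bases, GAA) lay in 5 members (Bst2, Ifi35, Ifit2, Ifitm3, Oas1a), against 8.3% of all promoters. The stretches of 8 members that the results below turn on, or whose site is shared by a near copy, are shown on the strand of the gene, with the letters that match the ISRE core in capitals (read on the other strand, the core is TTTC, any 2 bases, TTTC, and overlapping matches are merged):
Isg15 (chr4:156200855-156200916, minus strand): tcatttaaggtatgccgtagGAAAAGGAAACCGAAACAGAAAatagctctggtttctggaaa
Ifit1 (chr19:34640765-34640833, plus strand): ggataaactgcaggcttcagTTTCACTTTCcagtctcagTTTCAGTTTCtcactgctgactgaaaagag
Ifit3 (chr19:34583353-34583436, plus strand) and Ifit3b (chr19:34607749-34607832, plus strand): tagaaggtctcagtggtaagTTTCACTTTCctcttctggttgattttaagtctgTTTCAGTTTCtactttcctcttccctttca
Oas1a (chr5:120907510-120907565, minus strand): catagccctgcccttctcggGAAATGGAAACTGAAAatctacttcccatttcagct
Rsad2 (chr12:26456543-26456592, minus strand): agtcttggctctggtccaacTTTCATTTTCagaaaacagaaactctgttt
Stat2 (chr10:128270256-128270305, plus strand): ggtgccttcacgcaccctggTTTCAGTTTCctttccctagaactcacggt
Bst2 (chr8:71537567-71537622, minus strand): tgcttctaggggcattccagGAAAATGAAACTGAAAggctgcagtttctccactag

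Isg15 held 3 overlapping matches, and the match nearest the start lay 56 bases before it. Ifit1, Ifit3, Ifit3b, Oas1a and Bst2 held 2 matches each, and Rsad2 and Stat2 held 1. The 84 bases shown for Ifit3 and Ifit3b are identical. A match is a description of letters, not a site shown to be bound. Irf7, Irf9, Oasl2, Trim25 and Xaf1 were among the 10 members with a promoter in the table and no ISRE core in this window.

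RNA libraries held between 24284843 and 94686456 estimated counts over all transcripts, inside and outside the gene table. The table held between 36.3% and 94.9% of a library's deposited TPM (transcript abundance corrected for length and library size), with WT replicates 3 and 4 at 94.9% and 94.7%, so that deposited TPM are not on one scale. Levels below are therefore TPM rescaled within the gene table by the trimmed mean of M values (TMM), called scaled TPM. Wells of one experiment differed from each other by more than counting error, and none counted as one library deposited under 2 names. Mitochondrial genes took 24.2% and 14.9% of counts in the GFP-negative libraries, 11.2% and 10.6% in acutely isolated ECs and between 0.67% and 2.58% in the cultures. All 8 EC markers were at 1 scaled TPM or more in every EC and culture library, with a sum of 8906 and 6102 in acutely isolated ECs, 1873 to 4068 in WT cultures and 57.1 and 15.2 in GFP-negative cells. In bulk RNA, fewer cells of a type and less RNA per cell cannot be told apart.

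The members were highest in acutely isolated ECs. Their mean log2(scaled TPM + 1) was 2.47 in both GFP-negative libraries, 4.53 and 4.90 in acutely isolated ECs, 2.43 to 3.77 in WT cultures and 2.84 to 3.64 in stabilized cultures, while the mean over all genes stayed between 2.34 and 2.64 in all 14 libraries. On deposited TPM, which are not on one scale, the mean log2(TPM + 1) was 1.68 ± 0.17 (SD, n = 2) in GFP-negative cells, 3.59 ± 0.52 (n = 2) in acutely isolated ECs, 2.56 ± 0.63 (n = 6) in WT cultures and 2.68 ± 0.72 (n = 4) in stabilized cultures. Among acutely isolated ECs the levels spanned a wide range, from Ifitm3 at 686 and 860 scaled TPM and Oasl2 at 234 and 134 to Dhx58 at 3.01 and 3.72. Mx1, Oas2, Oas3 and Zbp1 did not exceed 1.41 scaled TPM in any of the 14 libraries. Mx1 stayed under the count filter in every comparison.

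**Figure D1:**
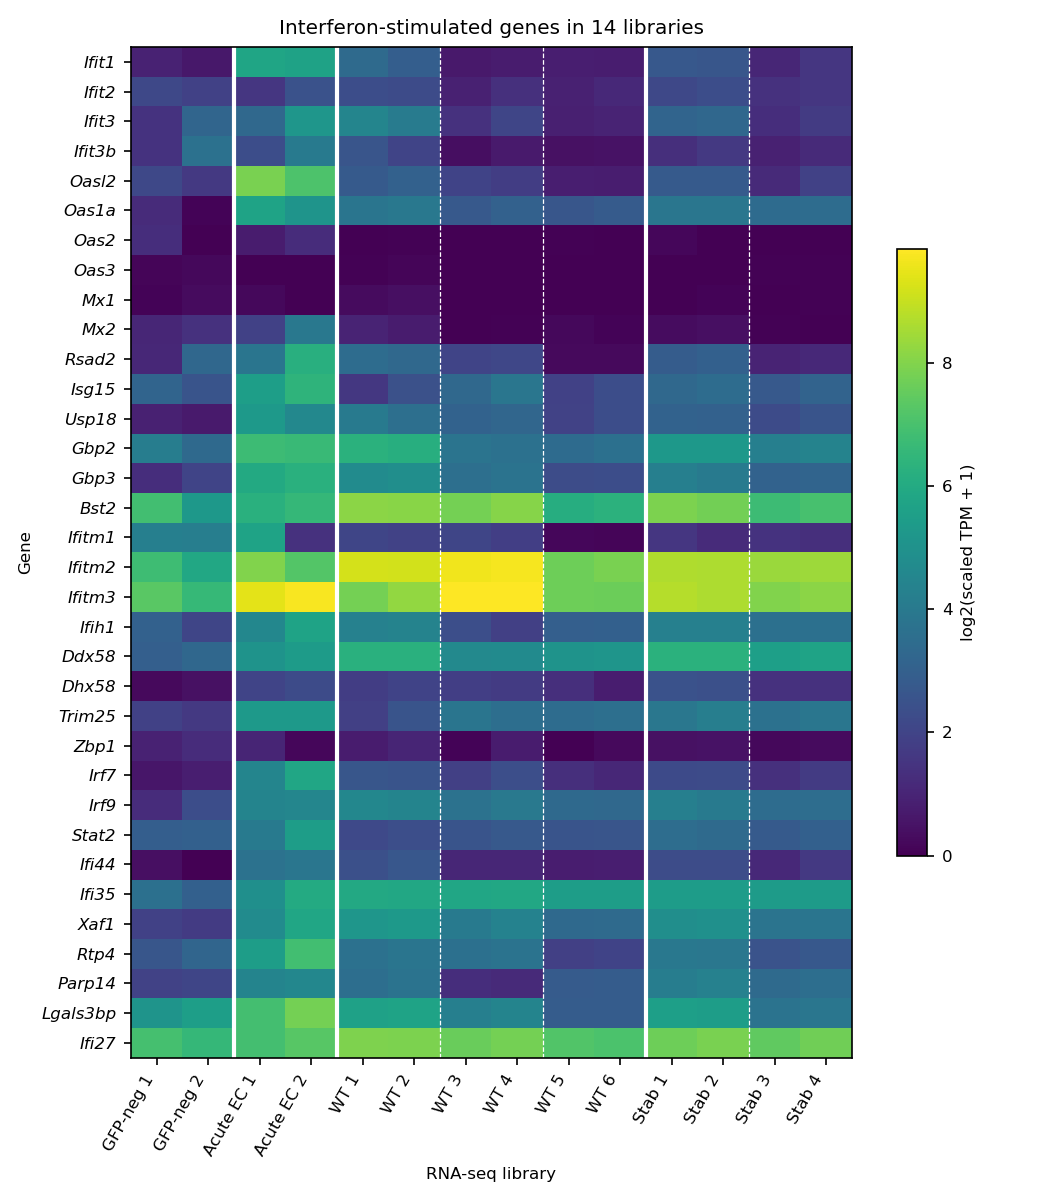
Scaled TPM of the 34 members, as log2(scaled TPM + 1) in colour, in each of the 14 RNA-seq libraries. Solid lines part the groups and dashed lines the culture experiments. The 2 acutely isolated EC libraries are brighter than the GFP-negative libraries for most genes, and WT replicates 5 and 6 are the darkest cultures for many of them.

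The first comparison asked which genes mark ECs among brain cells. Of the 33 members tested, 19 were higher in acutely isolated ECs than in their GFP-negative neighbours and 0 were lower. A gene was called when the Benjamini-Hochberg adjusted p of edgeR's quasi-likelihood test was under 0.05, the change over 2-fold and the deposited TPM at least 5 in each replicate of the higher group. The calls took 8.28% of all 15114 genes tested in the higher direction and 7.56% in the lower. By the adjusted p alone, 22 members were higher and 1, Oas3, was lower, against 9.92% and 19.7% of genes. Members had a median log2 fold change of 3.12, and all genes one of -0.06. Members were called in 8 of their 9 functional groups, all but that of the Mx GTPases and Rsad2. EC marker sums differed between the groups as given above. Microglia and macrophage markers summed to 804.5 and 573.5 scaled TPM in GFP-negative cells and 27.7 and 51.2 in ECs (2 of 9 markers at 1 or more in both EC libraries, Aif1 at 0), and pericyte markers to 985 and 1398 against 1582 and 1084 (5 of 5 at 1 or more in both groups). Their part in the result was not tested.

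Ifit1, an RNA-binding protein that blocks translation of viral RNA, stood at 0.915 and 0.552 scaled TPM in GFP-negative cells and at 54 and 49.8 in ECs. Its log2 fold change was 6.14 ± 0.66 (SE; edgeR quasi-likelihood, adjusted p = 0.00255), the largest among the called members. The other Ifit genes were not called. Ifit3 stood at 1.75 and 8.29 in GFP-negative cells and at 9.12 and 34.6 in ECs, and Ifit3b at 1.68 and 11.6 against 4.03 and 15.1, so that the 2 replicates of each group differed widely and, for Ifit3b, the groups overlapped. Reads of Ifit3 and Ifit3b may be split between them by the transcript quantification, as may those of the Oas1, Ifitm and Gbp copies, so the values of single copies are uncertain.

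Among the OAS family, whose enzymes make the oligoadenylates that activate RNase L, Oas1a and Oasl2 were called. Oas1a was at 1.29 and 0.0731 scaled TPM in GFP-negative cells and at 51.2 and 33.1 in ECs (log2 fold change 5.89 ± 1.34, edgeR adjusted p = 0.0222). Oasl2 was at 3.4 and 2.09 against 234 and 134 (5.42 ± 0.59, edgeR adjusted p = 0.00266). Both groups stood far apart for both genes. Oas3 passed the adjusted p in the lower direction (log2 fold change -7.98, edgeR adjusted p = 0.0305) but was at 0 in both EC libraries and at most 0.161 elsewhere, so its fold is not a size that can be read.

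Isg15, which is conjugated to proteins as ubiquitin is, was at 7.95 and 4.85 scaled TPM in GFP-negative cells and at 45.3 and 82.7 in ECs (3.68 ± 0.63, edgeR adjusted p = 0.00956). Usp18, the protease that removes it and also dampens the receptor, was at 0.874 and 0.616 against 39.2 and 23 (5.37 ± 0.72, edgeR adjusted p = 0.0046). Both EC libraries lay above both GFP-negative libraries for each. Gbp3, a guanylate-binding GTPase, was at 1.47 and 3.07 against 62.4 and 74.6 (4.97 ± 0.55, edgeR adjusted p = 0.00266). Its relative Gbp2 rose by a log2 fold change of 3.02.

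The transcription factors of the pathway were all called. Irf7, which drives later waves of interferon genes, was at 0.512 and 0.769 scaled TPM in GFP-negative cells and at 21.1 and 55.9 in ECs (5.27 ± 0.75, edgeR adjusted p = 0.00542). Irf9, the DNA-binding part of ISGF3, was at 1.38 and 4.04 against 20.8 and 21.8 (3.34 ± 0.63, edgeR adjusted p = 0.0127). Stat2 was at 6.64 and 7.2 against 15.7 and 43.7 (1.79 ± 0.48, edgeR adjusted p = 0.0369). No EC library overlapped a GFP-negative one for these genes, yet the Stat2 call was lost without GFP-negative replicate 1 or 2 or without EC replicate 2, the Irf9 call without GFP-negative replicate 1, and the call of Ifi35 without either GFP-negative replicate.

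The RNA sensors Ddx58 (RIG-I) and Ifih1 (MDA5) rose by log2 fold changes of 3.12 and 3.46, and Trim25, a ubiquitin ligase that acts with Ddx58, by 3.48. Ifitm3, a membrane protein that blocks virus entry, was at 160 and 94.8 scaled TPM in GFP-negative cells and at 686 and 860 in ECs (2.79 ± 0.43, edgeR adjusted p = 0.00685). It was the most abundant member in ECs. Its neighbours Ifitm1 (17.8 and 17.6 against 51.5 and 1.65) and Ifitm2 (110 and 59.2 against 248 and 148) were not called, nor was Bst2, which tethers budding virus (115 and 36.6 against 75.6 and 92.7). Of the other induced genes, Xaf1, a partner of the apoptosis inhibitor XIAP, was at 2.77 and 2.27 against 25.8 and 56 (4.81 ± 0.72, edgeR adjusted p = 0.00638). Rtp4, a receptor transporter, was at 5.14 and 8.19 against 44 and 114 (4.01 ± 0.74, edgeR adjusted p = 0.0119). Parp14 (3.30), Ifi35 (2.62) and Lgals3bp (2.48) were called as well.

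Ifi44, Dhx58 and Mx2 passed the adjusted p in the higher direction but not the TPM minimum, with log2 fold changes of 6.88, 3.86 and 3.55. That minimum is set on deposited TPM, where Ifi44 stood at 3.949 and 6.307 in ECs. On scaled TPM it stood at 11.95 and 13.64. Rsad2, which makes a chain-terminating nucleotide, was at 1.15 and 8.88 scaled TPM in GFP-negative cells and at 13.1 and 72.6 in ECs (log2 fold change 2.27), and its groups did not overlap although it was not called. The 2 EC libraries differed by more than 2-fold in favour of replicate 2 for 11 of the 32 members at 1 scaled TPM or more, against 22.0% of all genes.

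The comparison of WT cultures with acutely isolated ECs asked what 8 days of culture change. Of the 32 members tested, 11 were lower in culture and 0 were higher, where 10.2% and 13.5% of all 13798 genes tested were called. By the adjusted p alone, 15 members were lower and 0 higher, against 21.3% and 23.9% of genes. By an unadjusted p under 0.05, 18 members were lower and 1, Bst2, was higher, and DESeq2 called 1 higher. The median log2 fold change was -1.94 over the members and 0.10 over all genes, and 28 of the 32 members lay below 0. The called genes were Oasl2, Ifit1, Isg15, Irf7, Rtp4, Parp14, Trim25, Gbp3, Oas1a, Stat2 and Usp18. This comparison and the one above share the same 2 EC libraries and are not independent. Read length, amplification and the brain regions sampled differ between acutely isolated and cultured ECs and cannot be told apart from culture. EC marker sums were also lower in culture, at 1873 to 4068 scaled TPM against 6102 and 8906, and pericyte marker sums were 3.03 to 11.9 against 1084 and 1582. Erythrocyte markers summed to 14380 and 68130 in acutely isolated ECs and to at most 1.55 in WT cultures, and smooth muscle markers to 457.1 and 698.3 against 939.3 to 7198. Their part in the result was not tested.

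Oasl2 showed the largest fall among the called members. It stood at 234 and 134 scaled TPM in acutely isolated ECs and at 0.724 to 7.33 in WT cultures (median 2.68), a log2 fold change of -5.00 ± 0.66 (edgeR quasi-likelihood, adjusted p = 0.000628). Isg15 stood at 45.3 and 82.7 against 1.98 to 13.4 (median 4.19; -3.46 ± 0.57, edgeR adjusted p = 0.00167). Irf7 stood at 21.1 and 55.9 against 1.14 to 5.25 (median 3.43; -3.04 ± 0.56, edgeR adjusted p = 0.00277). Every WT culture lay below both acutely isolated EC libraries for these 3 genes.

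Ifit1 fell from 54 and 49.8 scaled TPM to between 0.597 and 9.43 (median 0.744), with a log2 fold change of -3.88 ± 1.02 (edgeR adjusted p = 0.0135). Rtp4 fell from 44 and 114 to between 2.62 and 13.1 (median 11.5; -2.92 ± 0.63, edgeR adjusted p = 0.00572). Parp14, an ADP-ribosyltransferase, went from 20.9 and 22.7 to between 1.28 and 12.4 (median 6.16; -2.43 ± 0.76, edgeR adjusted p = 0.0278). In Ifit1 and Parp14 the cultures spread over a wide range below ECs, as the large standard errors show. Trim25 fell from 38.6 and 37.8 to between 2.69 and 13.1 (median 10.5; -2.34 ± 0.52, edgeR adjusted p = 0.00664), and Gbp3 from 62.4 and 74.6 to between 3.92 and 28.2 (median 11.8; -2.09 ± 0.65, edgeR adjusted p = 0.0276). No culture reached the lower EC library for either.

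Stat2 fell from 15.7 and 43.7 scaled TPM to between 3.53 and 5.75 (median 4.87; -1.99 ± 0.29, edgeR adjusted p = 0.000974). Its 6 culture values were the most even of the 3 transcription factors. Irf9, its partner in ISGF3, did not pass: it stood at 20.8 and 21.8 in ECs and at 9.01 to 22.4 in cultures (median 13.4; -0.57 ± 0.39, edgeR adjusted p = 0.256), with the groups overlapping. Oas1a (-2.03 ± 0.42, edgeR adjusted p = 0.00464) and Usp18 (-1.90 ± 0.53, edgeR adjusted p = 0.0172) completed the called genes. Without EC replicate 1, the calls of Ifit1 (adjusted p = 0.063), Oas1a (0.0546), Usp18 (0.174), Gbp3 (0.102) and Parp14 (0.0997) were lost, and without EC replicate 2 those of Gbp3 (0.0987), Rtp4 (0.062) and Parp14 (0.0861). Summing the wells of each experiment left 8 called, without Usp18, Gbp3 and Parp14.

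Members that were not called included abundant ones. Mx2 (-4.46), Ifitm1 (-4.17), Ifi44 (-3.50) and Oas2 (-6.67, on 0 to 3 counts in each WT culture) passed the adjusted p in the lower direction but missed the TPM minimum. Ifi44 missed it on deposited TPM (3.949 and 6.307 in ECs), although it stood at 11.95 and 13.64 scaled TPM. The fall of Ifitm1 rests on EC replicate 1, at 51.48 scaled TPM. EC replicate 2, at 1.648, lay within the range of the WT cultures. Ifitm3 stood at 686 and 860 scaled TPM in ECs and at 197 to 915 in WT cultures (median 259; -0.59 ± 0.76, edgeR adjusted p = 0.551). The 2 wells of WT2, at 894 and 915, lay above both EC libraries and the other 4 below. Bst2 stood at 75.6 and 92.7 in ECs and at 69 to 280 in cultures (median 241; 1.42 ± 0.59, edgeR adjusted p = 0.0757), and Ifitm2 at 248 and 148 against 202 to 841 (median 583; 1.46 ± 0.70, edgeR adjusted p = 0.12). Bst2 and Ifitm2 were called higher in culture once WT3 was left out, a choice made after seeing the data, with log2 fold changes of 1.77 and 1.85 (edgeR adjusted p = 0.00586 and 0.0209). Ddx58 (-0.13), Ifi35 (0.22), Dhx58 (-0.48) and Ifi27 (0.44) had the fold changes nearest 0.

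**Figure D2:**
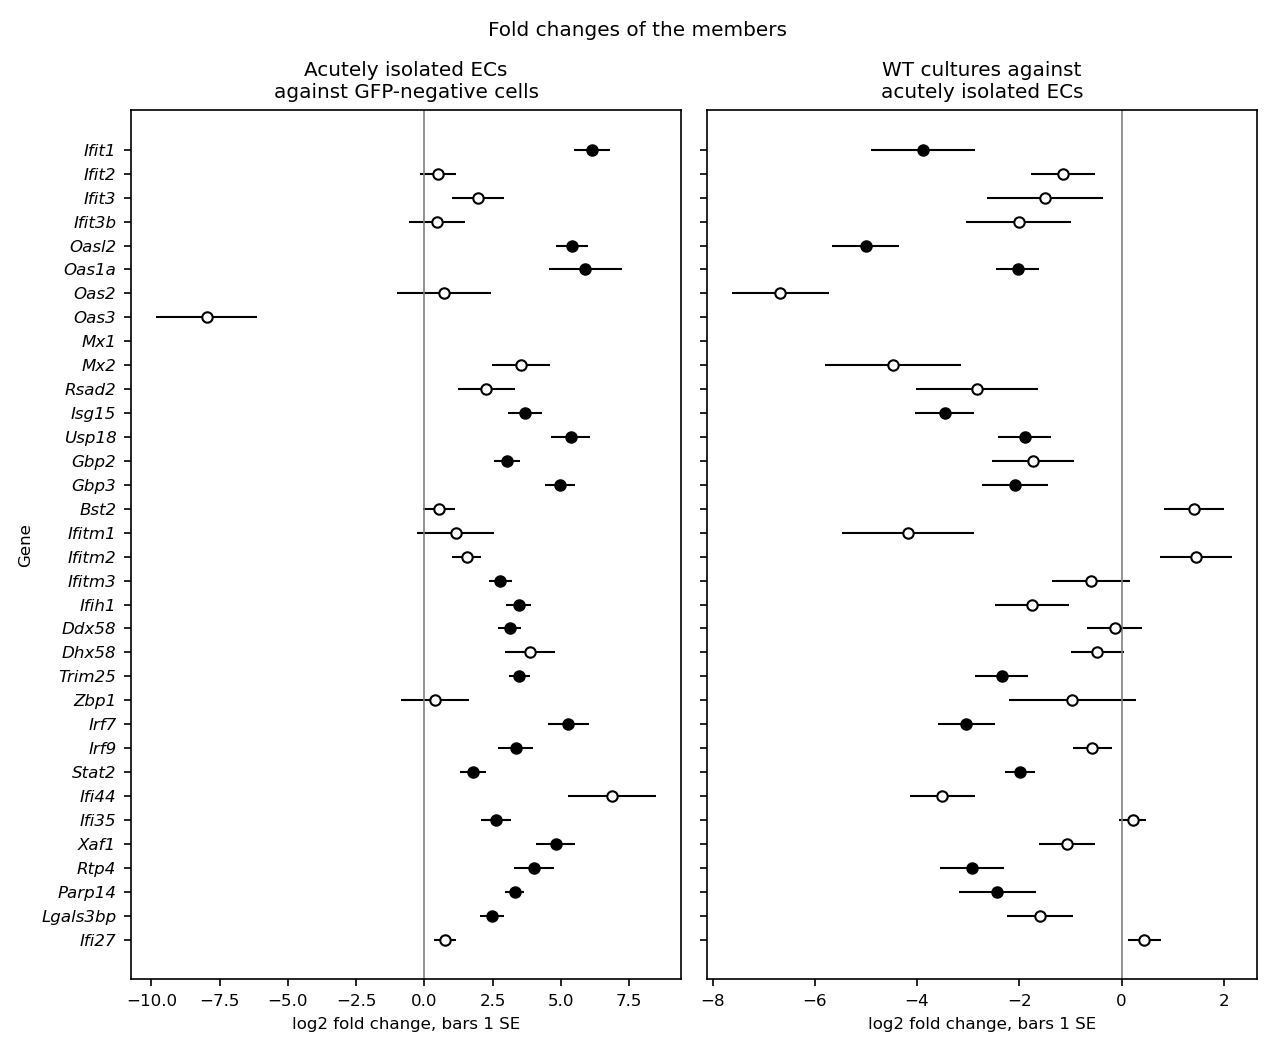
Log2 fold change of each member with bars of 1 SE, for acutely isolated ECs against GFP-negative cells (left) and WT cultures against acutely isolated ECs (right). Filled points were called (19 higher on the left, 11 lower on the right), open points were not, and a gene with no point was not tested. Both panels share the 2 acutely isolated EC libraries.

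The 3 WT culture experiments differed from each other in nearly every gene measured, and the members followed. All 31 members tested passed an adjusted p of 0.05 among the experiments, against 89.8% of all 13061 genes tested, and 16 were called by the fold and TPM rules as well, against 36.7%. The median distance between the highest and the lowest experiment was 2.41 on the log2 scale over the members and 1.22 over all genes. The called members were Ifit3, Oas1a, Isg15, Usp18, Gbp2, Gbp3, Bst2, Ifitm2, Ifitm3, Ddx58, Ifih1, Trim25, Irf9, Lgals3bp, Rtp4 and Xaf1. Mouse genotype, isolation method, facility and read length change with the experiment, and their parts cannot be told apart.

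Many members were highest in WT1, many were lowest in WT3, and 13 were both. Of the 30 members at 1 scaled TPM or more, 19 had both WT3 wells below the other 4 wells (21.7% of all genes did), and 21 had both WT1 wells above the others (25.0% of all genes). Both held for 13 members, against 7.95% of all genes. The median difference of WT3 from WT1 was -1.90 on the log2 scale, with 28 members below 0, that of WT2 from WT1 was -0.82 with 23 below 0, and that of WT3 from WT2 was -1.19 with 25 below 0. The same medians over all genes were 0.01, 0.02 and -0.06. EC marker sums had a similar order, at 3888 and 4068 scaled TPM in WT1, 1940 and 1933 in WT2 and 1873 and 1916 in WT3. Microglia and macrophage markers summed to 140 and 133, to 74.6 and 79.5 and to 97.4 and 107, with 1 of 9 markers at 1 scaled TPM or more in every WT well. Neuron markers summed to 27.6 and 25.7, 4.84 and 4.31, and 0.367 and 0.381 (0 of 4 at 1 or more in every WT well), and astrocyte markers to 3.69 and 3.47, 2.53 and 2.55, and 0.424 and 0.303 (0 of 4). Smooth muscle markers had the opposite order, at 1391 and 939.3, 2102 and 2052, and 7198 and 6965 (2 of 3). Their part in the result was not tested.

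Rsad2 had the largest distance between experiments (5.78 on the log2 scale), at 10.1 and 9 scaled TPM in WT1, 3.05 and 3.29 in WT2 and 0.198 and 0.174 in WT3. Ifit3 was at 21.3 and 15.9, at 1.65 and 3.19 and at 0.838 and 0.991. For both genes the order of the experiments was the same as that of Isg15's protease Usp18, at 15.3 and 11.2, 7.62 and 8.6, and 2.87 and 3.98. Lgals3bp, a secreted glycoprotein, was at 48.7 and 51.8, 17.9 and 20.9, and 6.3 in both wells. Oasl2 was at 5.95 and 7.33, 2.9 and 2.46, and 0.78 and 0.724. In each of these genes the wells of different experiments did not overlap. Rsad2 and Oasl2 passed the adjusted p and the fold but were not called. They missed the minimum of 5, which is set on deposited TPM, where Rsad2 stood at 4.025 and 4.754 in WT1.

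Ifit1 and Gbp2 showed a step between WT1 and both other experiments. Ifit1 stood at 9.43 and 6.71 scaled TPM in WT1, 0.597 and 0.681 in WT2 and 0.77 and 0.718 in WT3. Gbp2 stood at 76 and 71.4, 12.7 and 11.8, and 9.96 and 11.3. WT2 was lowest for 4 members (Ddx58, Ifih1, Ifit1 and Parp14; 30.9% of all genes). The sensor Dhx58, at 2.43 and 2.97 in WT1, 2.57 and 2.29 in WT2 and 1.53 and 0.747 in WT3, was not among them. Ifih1 was at 18.9 and 20.3 in WT1, 4.09 and 2.62 in WT2 and 6.97 and 7.18 in WT3, and Parp14 at 10.6 and 12.4, 1.47 and 1.28, and 6.12 and 6.2.

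Isg15, Ifitm2 and Ifitm3 were the 3 members highest in WT2, the experiment read with 150 cycles (30.6% of all genes were). Isg15 was at 1.98 and 4.37 scaled TPM in WT1, 8.95 and 13.4 in WT2 and 2.77 and 4.01 in WT3. Ifitm3 was at 218 and 299, 894 and 915, and 205 and 197. The WT1 and WT3 wells overlapped for Isg15 and lay apart by a small margin for Ifitm3. With the 36-cycle cultures only, 12 members were called between WT1 and WT3, against 16 with all 3 experiments. Isg15 (0.04 on the log2 scale) and Ifitm3 (0.35) then differed by less than 2-fold. Trim25 (1.76) and Rtp4 (2.13) still differed by more and missed the minimum of 5, which is set on deposited TPM. Deposited TPM are not on one scale, so these calls depend on it. On scaled TPM, Rtp4 stood at 11.7 and 13.1 in WT1, its higher experiment of the 2. Trim25 went against the general order, with 2.69 and 4.84 in WT1, 13.1 and 10.7 in WT2 and 10.2 and 11 in WT3. Stat2 differed little, at 3.53 and 4.15, 4.87 and 5.75, and 4.87 and 5.11.

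**Figure D3:**
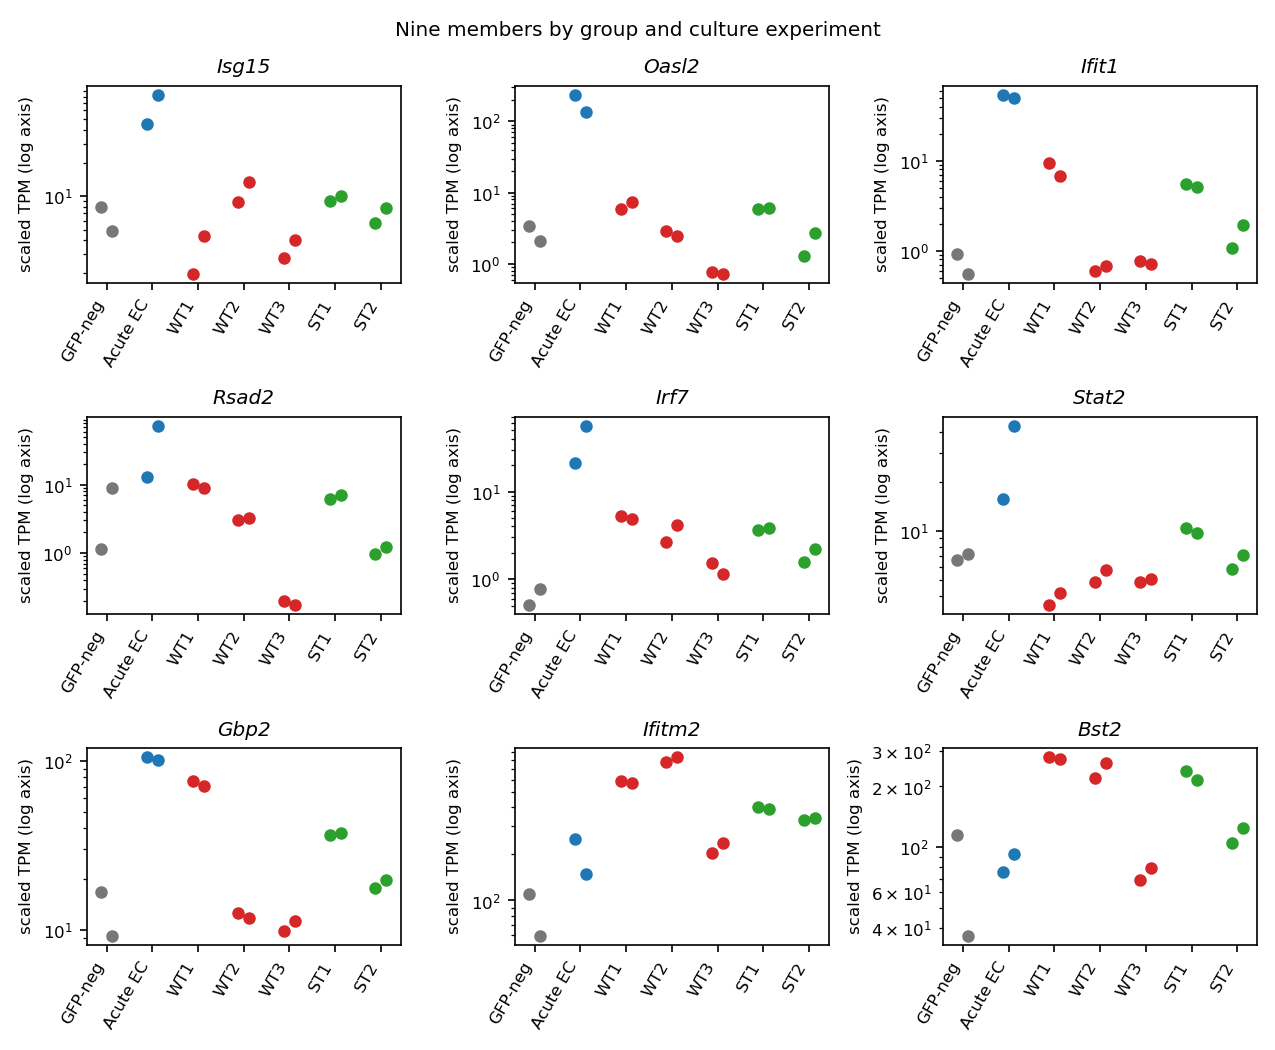
Scaled TPM on a log axis for 9 members in each library, by group and culture experiment (WT1 to WT3 are WT cultures, ST1 and ST2 stabilized cultures). Each point is 1 library. Oasl2 and Rsad2 step down from WT1 to WT3, whereas Isg15 and Ifitm2 are highest in WT2, and the 2 acutely isolated EC points of Isg15, Oasl2, Ifit1 and Irf7 lie above all cultures.

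Stabilized and WT cultures were compared to ask what active beta-catenin changes in cultured ECs. None of the 30 members tested was called in either direction by edgeR, and none of all 12968 genes tested was (0%). By an unadjusted p under 0.05, Stat2 was higher and Ifi35 lower, and DESeq2 called no member. Stabilized and WT wells of one method deviated together, by r of 0.385 to 0.527 between the 36-cycle wells, which this fit ignores. With isolation method as a term in the 36-cycle cultures, 0 of 30 members were called, against 0.518% of all genes higher and 0.0773% lower. Members had a median log2 fold change of -0.11, and all genes one of -0.07. Stat2 stood at 3.53 to 5.75 scaled TPM in WT cultures (median 4.87) and at 10.4, 9.65, 5.81 and 7.07 in stabilized cultures, with no overlap (0.84 ± 0.21, edgeR adjusted p = 0.367). Irf7 stood at 3.69, 3.8, 1.56 and 2.25 (-0.11 ± 0.47), Irf9 at 17.9, 15.8, 10.2 and 10.4 (-0.13 ± 0.30) and Ifitm3 at 427, 399, 252 and 280 (-0.76 ± 0.60, or 0.48 without the 150-cycle cultures), all within the range of the WT cultures. Isg15 stood at 9.06, 10.1, 5.78 and 7.77 in stabilized cultures (0.52), also within the WT range. The upper part of that range came from the 150-cycle WT2 wells, at 8.95 and 13.4. The 36-cycle WT wells stood at 1.98 to 4.37, below every stabilized well.

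Within one isolation method the spread was smaller and a few members were called. In method A cultures (2 stabilized and 2 WT wells), Trim25 (2.16), Isg15 (1.46) and Stat2 (1.45) were higher in stabilized cultures and Ifit3 (-1.08) was lower, 3 and 1 of 31 members, against 5.38% and 0.918% of all genes. In method B cultures with 36 cycles, Lgals3bp (1.02) was higher and no member was lower, 1 and 0 of 29, against 1.07% and 0.288%. Each of these sets 1 experiment of either genotype against another, so experiment and stabilization cannot be told apart. The method B set and the interaction below take WT3 as method B, as the paper's methods do and its figure legend does not. The controls also differ: those of method A were C57BL/6J mice without the Ctnnb1flex3 allele, and those of method B carried it. Control genotype is therefore part of any difference between the methods. Treatment may be as well, since it is unclear whether the C57BL/6J mice received 4-hydroxytamoxifen. The fold change of stabilized over WT cultures differed between the methods for 12 of 31 members by the interaction term (adjusted p under 0.05 and over 2-fold), against 15.3% of all 13368 genes tested. Its WT wells are those of WT1 and WT3, which were also compared with each other above. The 2 results are therefore not independent, and a difference between these controls enters the term directly. By the adjusted p alone 25 members differed, against 49.6%. The difference was in the direction of a higher fold change under method B for 27 of the 31 and was called in that direction for 11. Shares of all genes were not counted by direction, so these 2 counts have no share beside them. The median difference was 0.87 over the members and 0.03 over all genes. No TPM minimum was applied to this term. Ifitm1 had the largest fitted difference, with log2 fold changes of -1.07 under method A and 3.90 under method B, but it had 1 count in each WT3 well and 13 to 20 in the other 36-cycle wells, so its size cannot be read. Rsad2 had -0.67 and 2.53, Ifit3 -1.08 and 0.98, and Ifit1 -0.61 and 0.98. Trim25 was the single called member in the other direction, with 2.16 and 0.31.

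**Figure D4:**
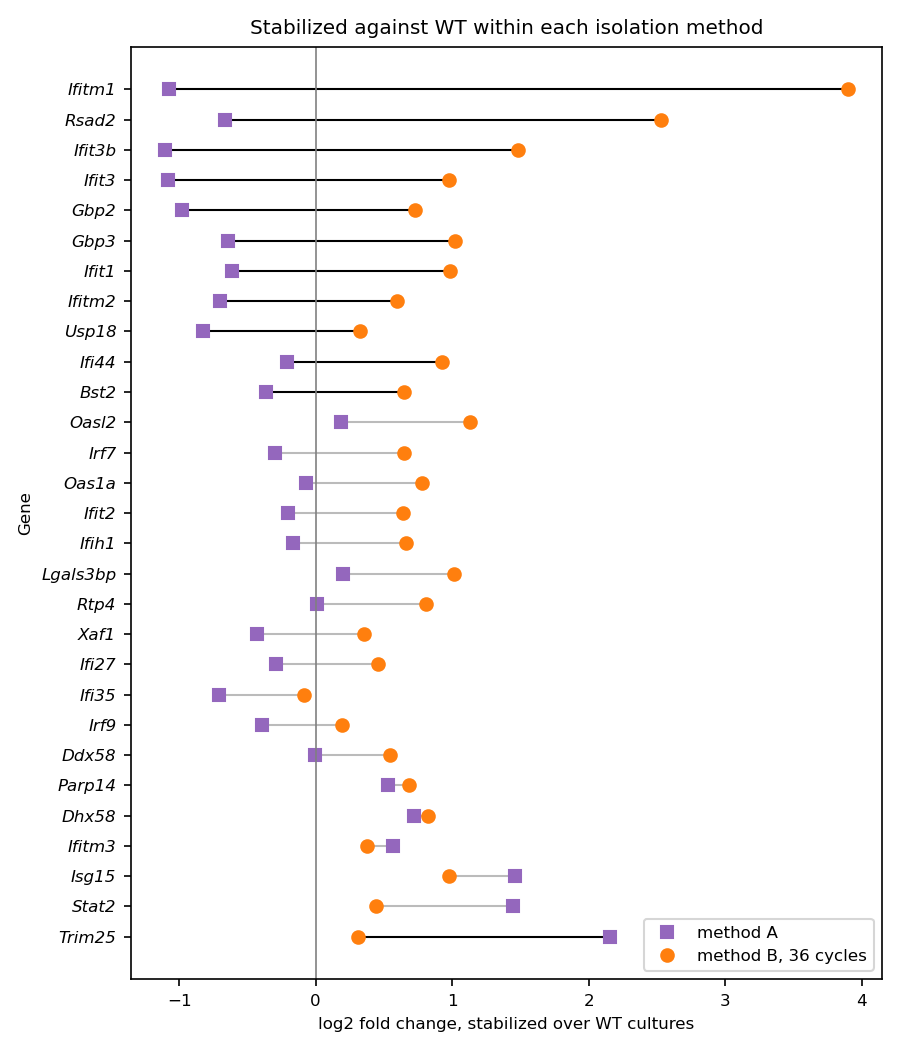
Log2 fold change of stabilized over WT cultures for each member tested under both methods, within method A (squares) and within method B with 36 cycles (circles), sorted by the difference. Mx1, Mx2, Oas2, Oas3 and Zbp1 are not drawn. Black lines join the 12 members whose interaction was called and grey lines the others. Ifitm1, at the top, runs from -1.07 to 3.90, and Trim25, at the bottom, from 2.16 to 0.31.

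The stabilized cultures themselves differed by method, a comparison chosen after seeing the data. Method A wells were higher than method B wells for 4 of 30 members (Lgals3bp, Ifit3, Rtp4 and Xaf1) and lower for 0, where 3.34% and 2.09% of genes were called. By an adjusted p alone, 23 members were higher in method A and 1, Ifi35, lower, against 30.7% and 31% of all genes. Lgals3bp stood at 45.6 and 43 scaled TPM in method A and at 12.5 and 13.5 in method B (1.69 ± 0.08, edgeR adjusted p = 1.48e-05). Ifit3 stood at 8.05 and 8.88 against 1.42 and 2.27 (2.08 ± 0.21). The wells of either method did not overlap for these genes. EC marker sums were 5136 and 4836 scaled TPM in method A and 2609 and 2741 in method B. Smooth muscle markers summed to 636.2 and 719.2 against 6224 and 5836, neuron markers to 6.43 and 8.95 against 0.681 and 0.662 and astrocyte markers to 6.88 and 6.38 against 2.78 and 2.74. Their part in the result was not tested.

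The rest of the interferon pathway was read from a list of 54 ligands, receptors, kinases, regulators and sensors, and from 43 further interferon-stimulated genes. Of 21 interferon ligand genes, 17 were listed at 0 in all 14 libraries, Ifnb1 (interferon beta) among them. The highest value was 1.15 scaled TPM, of Ifng in a GFP-negative library, and the highest in a culture was 0.28, of Ifnz. Both chains of the type I receptor were called higher in ECs. Ifnar1 was at 29.1 and 12.5 in GFP-negative cells and at 252.6 and 275.9 in ECs (3.21 ± 0.34, edgeR adjusted p = 0.00255), and Ifnar2 at 28.7 and 36 against 132.9 and 171.6 (2.81 ± 0.37, edgeR adjusted p = 0.00449). In WT cultures Ifnar1 stood at 58.9 to 143.4 (-0.80 ± 0.38, edgeR adjusted p = 0.117) and Ifnar2 at 73.8 to 185.2 (-0.72 ± 0.41, edgeR adjusted p = 0.176), and neither passed. Ifnar1 was below both EC libraries in every WT culture, while Ifnar2 overlapped.

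Irf1, an activator downstream of interferon gamma, was at 13.5 and 12.7 scaled TPM in GFP-negative cells, 239.4 and 83.5 in ECs and 10.2 to 52.9 in WT cultures (4.04 ± 0.60 in ECs and -1.72 ± 0.60 in culture, edgeR adjusted p = 0.0428 for the latter). No WT culture reached either EC library for Irf1. Over the pathway list, 7 of 34 tested genes passed as higher in ECs and 1 as lower (Ptpn6, a phosphatase of blood cells, at -5.10), against 8.28% and 7.56% of all genes, and 3 of 29 were higher and 7 lower in culture, against 13.5% and 10.2%. Those higher in culture were Ifngr2, a chain of the interferon gamma receptor (2.85), Tmem173 (STING, 2.43) and the feedback inhibitor Socs3 (2.15), and the largest fall was that of the repressor Irf2 (-3.53). Of the further interferon-stimulated genes, 15 of 42 were higher and 0 lower in ECs (8.28% and 7.56% of all genes), among them the GTPases Gbp5 (6.80) and Irgm2 (4.16), the nuclear body protein Sp100 (5.12), the surface protein Ly6e (4.74) and Slfn5 (5.54). In culture 1 of 43 was higher (Tap1, the peptide transporter, 1.20) and 10 were lower, against 13.5% and 10.2% of all genes, among them Gbp5 (-5.11), the exonuclease Isg20 (-3.78), Sp100 (-3.74), Slfn5 (-3.40) and Gbp7 (-3.26). No gene of either list was called between stabilized and WT cultures, and 13 of 29 and 16 of 43 were called among the 3 WT experiments, against 36.7% of all genes.

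ATAC-seq gives a readout apart from RNA. Peaks had been called in each library on its own, and a member was counted where a peak with a fold enrichment over 2 and a −log10 q over 2 overlapped 500 bases to either side of its annotated start. Of the 34 members, 23 had such a peak in both acutely isolated EC libraries, 21 in all 6 WT culture libraries and 26 in both stabilized culture libraries, where 49.2%, 47.3% and 55.1% of all 21902 genes did. Both stabilized ATAC-seq libraries came from method B, whereas WT ATAC-seq libraries 1 and 2 came from method A and the other WT ones from method B. Libraries held from 31844 to 98840 peaks, so peak heights and counts of libraries are a description. No peak was found in any library at the starts of Isg15, Rtp4, Ifitm1, Oas2 and Oas3. For Ifitm1 the gene start used for peaks was base 140967221 of chromosome 7. The 500 bases around it did not reach the promoter searched for motifs (140967826 to 140968125), so that promoter was not searched for peaks. Isg15 and Rtp4 were nevertheless among the members called lower in culture, and no match in these lists says only that no peak was called there.

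Several members called lower in culture had peaks at their starts in cultures as well. Stat2 had a fold enrichment of 21.3 and 17.7 in acutely isolated ECs, 13.2 to 25.1 in WT cultures and 22.1 and 20.3 in stabilized cultures. Ifit1 had 11.9 and 10.2 in ECs, 5.49 to 12.4 in WT cultures and 8.38 and 8.6 in stabilized cultures. Usp18 had 18.1 and 18.9 in ECs and 13.5 to 17.9 in WT cultures. The ranges of ECs and WT cultures overlapped for Stat2 and Ifit1 but not for Usp18. Irf7 had 7.69 and 5.69 in ECs and a peak in 5 of 6 WT cultures, up to 8.4, and Oasl2 a peak of 3.67 in 1 EC library and in 4 of 6 WT cultures.

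Ddx58, whose RNA overlapped between the groups, had a peak of 6.09 and 6.69 in acutely isolated ECs and of 9.83 to 19.8 in all 6 WT cultures. Rsad2 had 7.81 and 7.66 in ECs and 6.66 to 16.6 in WT cultures, and Irf9 13.5 and 12.4 against 9.58 to 23.1. For Ddx58 every culture lay above both EC libraries, while for Rsad2 and Irf9 the ranges overlapped. Parp14 and Dhx58 had no peak in ECs and a peak in 3 of 6 WT and both stabilized cultures, at 2.58 to 3.05 for Parp14 and 4.22 to 4.58 for Dhx58 in the WT cultures that had one. Parp14 RNA was lower in culture, and a peak at its start was called in some cultures and in neither EC library. The WT libraries with the Parp14 peak (3, 4 and 6) held 92763, 98840 and 92976 peaks in all, and the stabilized ones 80075 and 79160. WT libraries 1, 2 and 5, without it, held 50450, 33152 and 84560, and the EC libraries 37453 and 31844. The part of peak yield was not tested. Of the members called lower in culture with a promoter in RefSeq, 5 of 8 held the ISRE core shown above, as did 10 of 17 of the others.

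**Figure D5:**
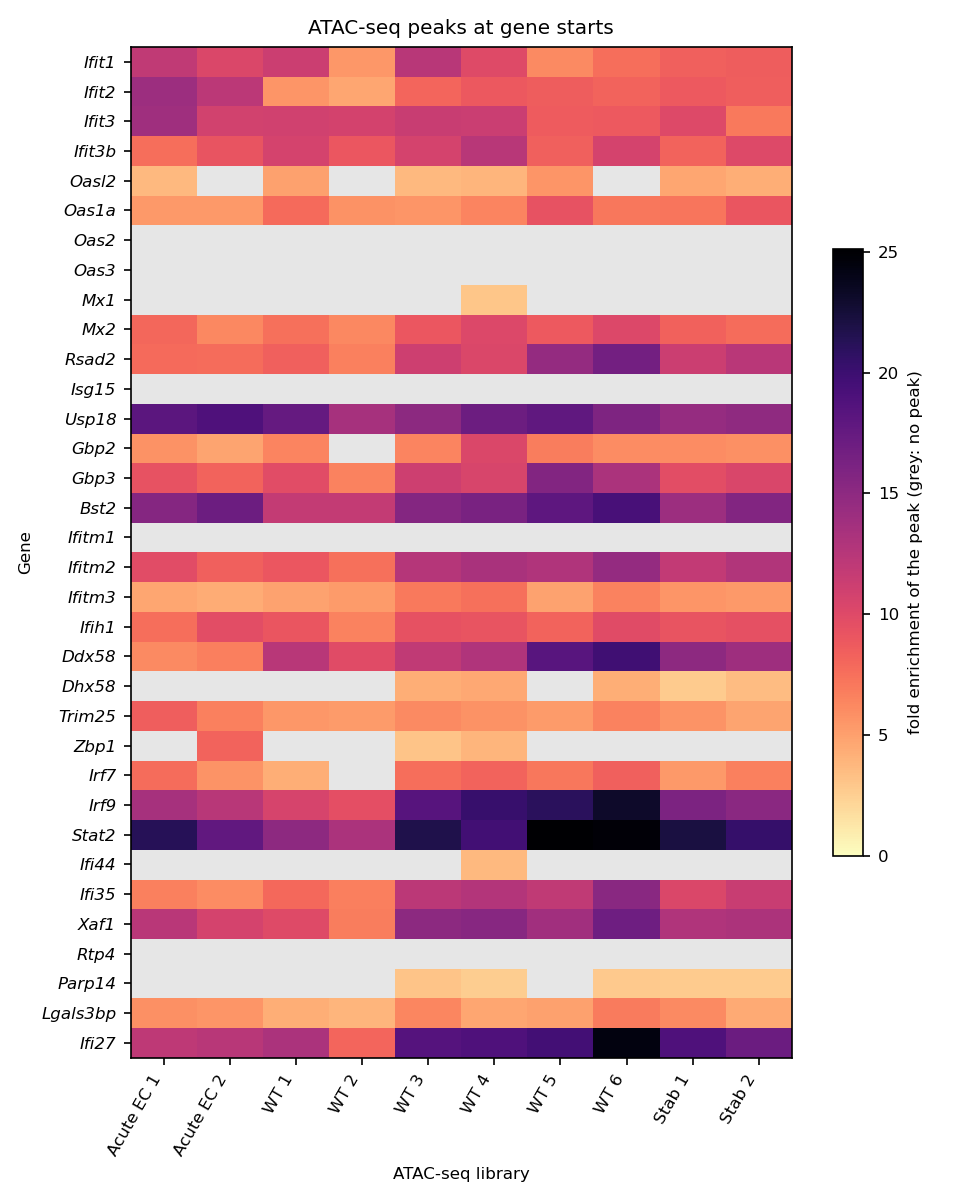
Fold enrichment of the highest ATAC-seq peak within 500 bases of each member's start, in colour, in each of the 10 ATAC-seq libraries, with grey where no peak was called. Isg15, Rtp4, Ifitm1, Oas2 and Oas3 are grey throughout, and Stat2 and Usp18 are dark in every library.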

How the data were processed

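Per the labels and the study's methods, the authors quantified RNA-seq reads with Salmon 0.14.0 against GENCODE transcripts of GRCm38 and deposited TPM and estimated counts per transcript. For ATAC-seq they aligned reads with HISAT2 2.1.0 and called peaks per library with MACS2 2.1.2, and the deposited peaks carry a fold enrichment and a −log10 q value. The authors’ peak files also hold a peak score, not used here. Here transcripts were summed to 21902 genes (protein-coding and polymorphic pseudogenes, the latter for Mx2), estimated counts were rounded and tested with edgeR 4.0.16 (R 4.3.3; TMM, filterByExpr, quasi-likelihood F test, Benjamini-Hochberg over all genes tested) on the groups compared only. The fit was tested on simulated data. Scaled TPM are a choice made after seeing the data. Members and gene lists were chosen with earlier results of these data known. Values are given for up to 8 called members of largest fold per comparison and for Stat2, Irf7, Irf9, Isg15 and Ifitm3, and up to 6 called genes per comparison from the wider lists, plus Ifnar1, Ifnar2, Irf1 and Ifnb1; 1 further gene of this rule is not reported here. Other genes named with values were picked after their values were seen. Alternatives covered DESeq2 1.42.0, library-size scaling, a transcript-length offset, filters, replicate blocks, summed wells, read length, isolation method and each library left out. Cerebrum-only samples were not analysed here. The record of stabilized replicate 4 names DNA as its molecule, and its title was followed.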

Additional observations from a re-analysis of the deposited data

Results flagged for a closer look

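The fold change of stabilized over WT cultures differed between isolation methods for 12 members, by the interaction term of edgeR's quasi-likelihood test over the 36-cycle cultures (log2 fold change under method B minus that under method A). The difference was 4.97 for Ifitm1, 3.22 for Rsad2, 2.61 for Ifit3b, 2.08 for Ifit3, 1.73 for Gbp2, 1.69 for Gbp3, 1.61 for Ifit1, 1.32 for Ifitm2, 1.17 for Usp18, 1.16 for Ifi44, 1.03 for Bst2 and -1.82 for Trim25. Ifitm1 had 1 count in each WT3 well, so its size cannot be read. Each method and genotype is 1 experiment of 2 wells. The controls are the wells of WT1 and WT3, whose difference was described above, so this result is not independent of that one. WT3 is taken as method B, as in the paper's methods but not its figure legend. The method A controls lacked the Ctnnb1flex3 allele that the method B controls had, so method, experiment and control genotype cannot be told apart. Whether the method A controls had received 4-hydroxytamoxifen, as the method B controls had, is unclear from the paper, so treatment may differ too. The calls of Usp18 (without WT replicate 1 or 5 or stabilized replicate 4), Bst2 (without WT replicate 5 or stabilized replicate 2 or 4) and Ifi44 (without stabilized replicate 4) were lost when 1 well was left out.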

How the results depend on the processing

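The 11 members lower in WT cultures than in acutely isolated ECs became 8 to 13 when 1 library was left out, 13 with DESeq2 and 8 with wells summed, and the 19 higher in ECs against GFP-negative cells became 16 to 21. Members higher in culture went from 0 to 1 with DESeq2, 2 with a replicate block, 1 with all 14 libraries in one fit, 2 with method A cultures only, 2 without WT experiment 3 (added after seeing the data) and 0 to 1 with 1 library left out. Without the TPM minimum, 1 member (Oas3) was lower in ECs and 28 differed among the WT experiments. Stabilized cultures had 3 members higher and 1 lower with method A only and 1 higher with method B and 36 cycles. Rescaling TPM to the gene table and by TMM, which are 2 changes made together, moved the mean log2 level from 1.68 to 2.47 in GFP-negative cells and from 3.59 to 4.72 in acutely isolated ECs. The causes were not tested. Replicate numbers did not pair the samples: deviations of same-numbered stabilized and WT wells correlated by 0.467, 0.463, -0.010 and 0.043, and not every well correlated best with its own number. With a replicate block, 11 members were lower in culture, 18 were higher in ECs, and 0 differed with stabilization (144 genes higher and 44 lower in all). Of the calls of single members, 39 of the values under alternatives lost significance and 0 changed sign. Single libraries decide several calls, as named above, and levels below 1 TPM rest on few reads.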

Other observations

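Among the 10 cultured libraries, the genes outside the lists whose log2(TPM + 1) followed the members' mean most closely were Mef2c (Pearson r = 0.9962 on deposited and 0.9906 on scaled TPM), Rapgef5 (0.9958 and 0.9904), Ccl2 (0.9952 and 0.9436), Zfand5 (0.9951 and 0.9775) and Cyth3 (0.9944 and 0.9811), over 10860 genes. These are descriptions: libraries share experiments and, for deposited TPM, the share of each library held by the gene table.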
